A study of Mus musculus with 4 samples.

Results

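Expression of 40 genes of fatty acid synthesis, uptake and oxidation was compared between leukemic and normal erythroid cells of the mouse. The genes were listed by name, each was matched to the probe set that the array's gene table pairs with its symbol alone, and for a gene with several such probe sets the one of highest mean signal stood for the gene. In this way 37 of the 40 genes were measured, out of 19938 genes with a probe set of their own. Acsl3 and Cpt1b were read only by probe sets that also list another gene, and Acsl1 was not analysed here. The measured genes fall into 7 roles, which are uptake and binding, carbon supply and chain building, desaturation and elongation, activation, the carnitine shuttle, mitochondrial β-oxidation, and glycerolipid synthesis with lipolysis.

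The leukemic cells were MEL cells, a murine erythroleukemia line (clone DS19) that stably carries Gata-1 fused to the ligand-binding domain of the estrogen receptor (ER), grown in DMEM with serum, glutamine and puromycin. The normal cells were ES-EP, untransformed progenitors of the erythroid lineage made from embryonic stem (ES) cells and grown in serum-free StemPro34 medium with erythropoietin, IGF-1, dexamethasone, stem cell factor and β-mercaptoethanol. All cultures were proliferating, and each cell type gave 2 arrays, A and B, from duplicate cultures. Cell type and medium changed together, serum and dexamethasone included, so their parts in any difference cannot be told apart. The MEL line is 1 clone. Each p-value rests on how far duplicate cultures of a line differed, in the gene itself and, in larger part, over all genes.

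Fatty acids reach a cell either from outside, released from lipoproteins and carried by binding proteins, or by synthesis in the cytosol, where citrate is cleaved to acetyl-CoA, carboxylated to malonyl-CoA and built into palmitate. Palmitate is then elongated and desaturated at the endoplasmic reticulum. To be used, a fatty acid is first joined to coenzyme A, and it is then either esterified to glycerol or passed through the carnitine shuttle into mitochondria and oxidized. In red cell precursors, which divide quickly and still hold mitochondria, these routes supply membrane lipids and energy.

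Signals are log2 values after robust multi-array averaging (RMA), and the difference is MEL minus ES-EP, so a negative value means a lower signal in MEL. A gene is called where limma's p-value, adjusted by Benjamini-Hochberg over all genes, is under 0.05. Of the 37 fatty acid genes 32 were called (86.5%), against 63.8% of all genes. Of these, 21 were lower in MEL (56.8%, against 43.2% of all genes) and 11 were higher (29.7%, against 20.5%). At least 2-fold differences were seen for 8 genes lower in MEL (21.6%, against 4.27% of all genes) and for 1 higher in MEL (2.7%, against 5.72%). The median difference was -0.30, beside -0.15 over all genes, and 23 of the 32 called genes differed by less than 2-fold. Within a cell type no fatty acid gene varied by more than an SD of 0.18.

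A share of the array's weakest signals is background, and the calls reach into it. The 95th percentile of 1027 olfactory receptor genes, taken as a gauge of background, was 5.19 in MEL and 5.56 in ES-EP. It is called the olfactory level below, and whether these cells use single receptor genes was not tested. Even among these receptor genes 48.9% were called, mostly lower in MEL. Of the 37 fatty acid genes, 29 lay above this level in both cell types, 2 only in MEL, 4 only in ES-EP and 2 in neither. A fold whose lower signal lay under the level is marked as against background, and its size is then not exact. Among the 33 fatty acid genes whose mean over all arrays was above the olfactory level (5.33), 18 were lower and 10 higher in MEL (54.5% and 30.3%), against 40.4% and 28.4% of all genes above it. Because the arrays of the 2 cell types were not fully on 1 scale (medians 5.68 and 5.67 in MEL, 5.81 and 5.84 in ES-EP), 3 rescalings were run. The median over all genes, -0.15 as deposited, became -0.03 (quantile normalization), -0.01 (median centring) and -0.003 (cyclic loess), and the calls over all genes became 5342 higher with 5975 lower, 5757 with 5644, and 5676 with 5460 in that order. Of the 32 called fatty acid genes 29 were called in the same direction under all 3 rescalings. Fasn, Acadvl and Pnpla2 were not, and none of the 32 changed sign in any setting.

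**Figure D1:**
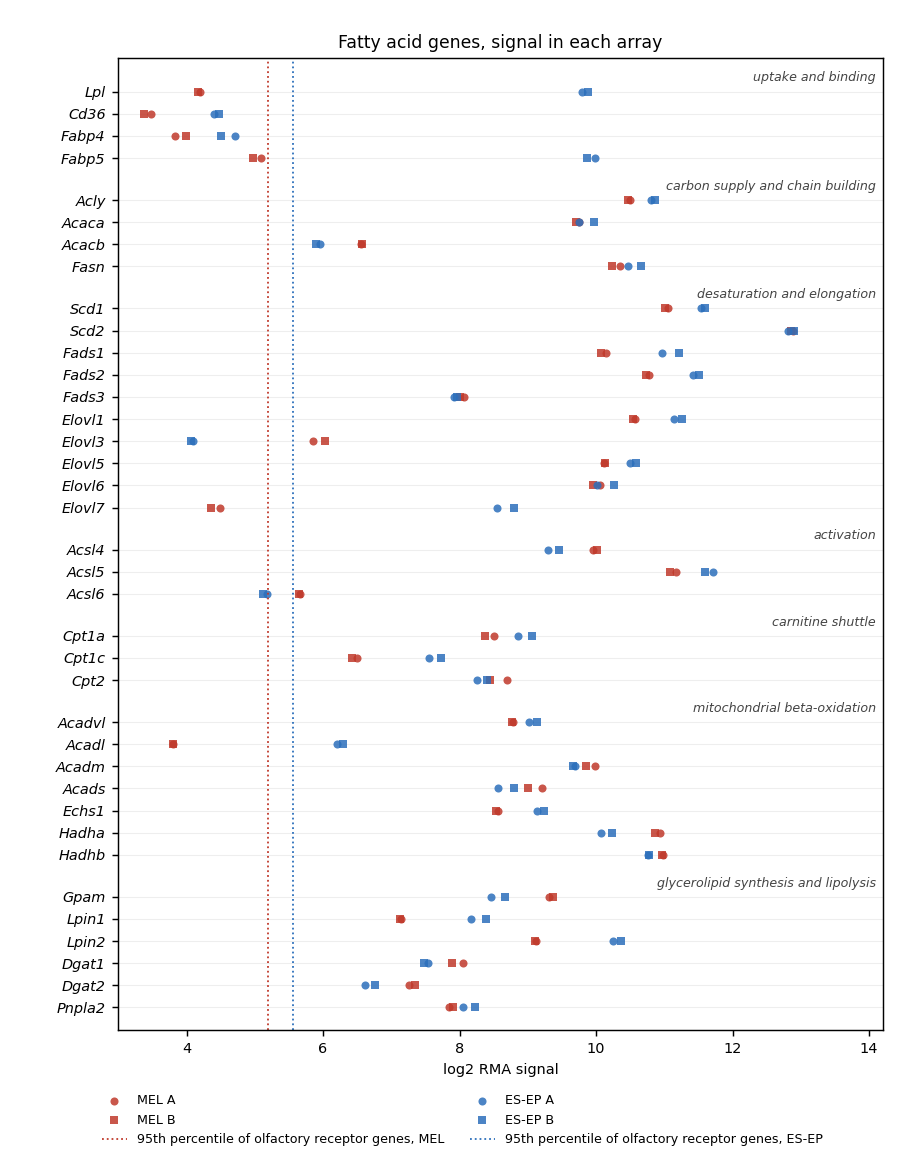
Log2 RMA signal (horizontal axis) of the 37 measured fatty acid genes, grouped by role, with MEL arrays in red and ES-EP arrays in blue (circles A, squares B). Dotted lines mark the olfactory level of each cell type, and Lpl, Fabp5, Elovl7 and Acadl lie under it in MEL and above it in ES-EP.

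The role with the widest gaps was uptake and binding. All 4 of its genes were called lower in MEL, as were 43.2% of all genes. Cd36 and Fabp4, however, lay under the olfactory level in both cell types. Lpl encodes lipoprotein lipase, the secreted enzyme that frees fatty acids from lipoprotein triglycerides. Its signal was 4.20 and 4.17 in the MEL arrays, against 9.79 and 9.88 in the ES-EP arrays. Lpl was thus 50.4-fold lower in MEL (-5.65 ± 0.08, SE, adjusted p = 1.02e-11), against background, and ranked 16 of 19938 genes by the size of its difference. Fabp5, a cytosolic fatty acid binding protein found in epidermis and macrophages among other tissues, showed the same pattern with 5.09 and 4.97 in MEL, against 9.99 and 9.86 in ES-EP. It was 29.7-fold lower in MEL (-4.89 ± 0.09, adjusted p = 1.89e-11), against background, with rank 46. A second probe set of Fabp5 gave 4.67 and 4.54 in MEL, against 9.93 and 9.85 in ES-EP, a gap of 39.1-fold. Both probe sets list the same RefSeq transcripts, and which of them reads other copies of the sequence was not tested.

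The other members of this role were at background. Cd36, a scavenger receptor that takes up long-chain fatty acids, gave 3.49 and 3.37 in MEL, against 4.40 and 4.47 in ES-EP, all under the olfactory level. Its difference of -1.01 ± 0.08 passed the 2-fold mark in the deposited values but was -0.83, -0.86 and -0.84 after quantile normalization, median centring and cyclic loess. Fabp4, the fatty acid binding protein of adipocytes and macrophages, lay between 3.83 and 3.99 in MEL, against 4.50 and 4.71 in ES-EP (difference -0.70 ± 0.10). Of these 4 genes, then, 2 had a signal clear of background, and only in ES-EP.

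Lpl, Fabp4 and Fabp5 are also markers of other cell types, so lists of such markers were examined in the same arrays. In bulk RNA, fewer cells of a type and less RNA per cell cannot be told apart. Of 7 measured erythroid markers all stood above that level in MEL and in ES-EP alike, and the list averaged 9.42 and 9.38 in MEL, against 11.08 and 11.19 in ES-EP. The members did not move as one, since Slc4a1 (-5.47), Epb42 (-3.22), Alas2 (-3.12), Tfrc (-0.78) and Klf1 (-0.65) were lower in MEL, Gata1 was higher (1.14) and Epor was not called (-0.04). The MEL line also carries the Gata-1 fusion, and the part of its transcripts in the Gata1 signal was not tested. Of 5 adipocyte markers 3 were above it in each cell type (Cidec, Retn and Plin1), and their list averaged 4.96 and 4.91 in MEL, against 5.24 and 5.27 in ES-EP. Adipoq and Lep, which define adipocytes, lay under it in both (4.20 and 3.90 in MEL, 4.54 and 4.22 in ES-EP). Of 7 macrophage markers 2 in MEL and 2 in ES-EP were above the level, and the list averaged 4.96 and 4.92 in MEL, against 5.16 and 5.19 in ES-EP, with Adgre1 and Lyz2 under it in both. Csf1r, another of these markers, averaged 4.71 in MEL and 5.61 in ES-EP, just above the level there. Of 6 endothelial markers 2 in MEL and 1 in ES-EP were above it, with list averages of 5.24 and 5.29 in MEL, against 5.23 and 5.18 in ES-EP. Of 6 mast cell markers none in MEL and 1 in ES-EP were above it, namely Ms4a2 (3.95 in MEL, 11.05 in ES-EP), and the list averaged 4.09 and 4.01 in MEL, against 5.73 and 5.71 in ES-EP. In MEL 3 of 4 megakaryocyte markers were above the level, against 2 in ES-EP, and their list averaged 7.48 and 7.34 in MEL, against 5.27 and 5.24 in ES-EP. Hepatocyte and embryonic stem cell markers each had 1 of 4 above the level in MEL and 1 of 4 in ES-EP. Hepatocyte markers averaged 4.97 and 4.84 in MEL, against 4.99 and 4.98 in ES-EP, and stem cell markers 4.50 and 4.41 in MEL, against 4.69 and 4.58 in ES-EP. The part that mast cell or macrophage transcripts have in the signals of Lpl and Fabp5 was not tested.

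Carbon supply and chain building differed little. Acly, which cleaves citrate to acetyl-CoA, averaged 10.48 ± 0.02 in MEL and 10.84 ± 0.05 in ES-EP (SD, n = 2 each), 1.28-fold lower in MEL (adjusted p = 0.00293). Fasn, the synthase that builds palmitate, gave 10.35 and 10.23 in MEL, against 10.47 and 10.66 in ES-EP. Its arrays did not overlap, as for 34 of the 37 fatty acid genes and 16314 of all 19938 genes. The gap of 1.21-fold (-0.27 ± 0.09, adjusted p = 0.0235) lost its call under each of the 3 rescalings. The call was also lost without MEL replicate A, MEL replicate B or ES-EP replicate B (adjusted p = 0.0526, 0.17 and 0.148). Acaca and Acacb encode the acetyl-CoA carboxylases, of which the first supplies malonyl-CoA for synthesis and the second, at the mitochondrial surface, makes malonyl-CoA that restrains the carnitine shuttle. For Acaca the arrays overlapped (9.76 and 9.70 in MEL, 9.75 and 9.97 in ES-EP), and the difference of -0.13 ± 0.09 was not called (adjusted p = 0.229). Its second probe set gave 0.03 ± 0.10, so the 2 probe sets differed in sign and neither passed the test. Acacb stood apart from the rest of the role, with 6.56 in each MEL array, against 5.96 and 5.90 in ES-EP, 1.55-fold higher in MEL (adjusted p = 6.24e-05).

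Among desaturases and elongases, 6 of 10 were lower in MEL, 1 was higher and 3 were not called. Over all genes 43.2% were lower and 20.5% higher, 63.8% called in either direction. Most had strong signals in both cell types and differed by less than 2-fold, whereas the elongases Elovl7 and Elovl3 differed widely and in opposite directions. Elovl7, an elongase of saturated long-chain acyl-CoAs, gave 4.48 and 4.37 in MEL, against 8.55 and 8.80 in ES-EP. It was 19.0-fold lower in MEL, against background (-4.25 ± 0.10, adjusted p = 1.12e-10), and ranked 88 of all genes. Elovl3, known as an elongase of brown fat, liver and skin, gave 5.85 and 6.03 in MEL, against 4.09 and 4.07 in ES-EP. It was 3.63-fold higher in MEL, against background (1.86 ± 0.09, adjusted p = 2.4e-08), and its MEL signal itself lay close above the olfactory level of 5.19.

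The remaining elongases had strong signals. Elovl1, which makes very long saturated chains, was 1.56-fold lower in MEL (10.56 ± 0.02 in MEL and 11.20 ± 0.08 in ES-EP). Elovl5, which elongates polyunsaturated chains, was 1.33-fold lower (10.12 ± 0.01 in MEL and 10.53 ± 0.06 in ES-EP). Elovl6, which carries palmitate to stearate, overlapped between the cell types (10.05 and 9.96 in MEL, 10.02 and 10.27 in ES-EP) and was not called (-0.14 ± 0.10, adjusted p = 0.243).

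Of 5 desaturases 3 were lower in MEL and 2 were not called. Scd1 and Scd2 are stearoyl-CoA desaturases, which place the first double bond. Scd1 gave 11.06 and 11.01 in MEL, against 11.53 and 11.60 in ES-EP, and was 1.44-fold lower in MEL (adjusted p = 0.000222). Scd2 overlapped, with 12.88 and 12.86 in MEL, against 12.81 and 12.91 in ES-EP (0.01 ± 0.08, adjusted p = 0.915). Fads1 and Fads2, the front-end desaturases of polyunsaturated fatty acids, were lower in MEL. Fads1 gave 10.14 and 10.07 in MEL, against 10.97 and 11.22 in ES-EP, 1.98-fold lower in MEL and just short of the 2-fold mark (adjusted p = 9.9e-06). Fads2 gave 10.78 and 10.73 in MEL, against 11.42 and 11.50 in ES-EP, 1.63-fold lower in MEL (adjusted p = 3.11e-05). Fads3 lies beside them on chromosome 19, yet it averaged 8.03 ± 0.04 in MEL and 7.94 ± 0.03 in ES-EP and was not called (0.10 ± 0.08, adjusted p = 0.319). It was called as higher in MEL after median centring (adjusted p = 0.0198), so its call depends on the scale of the arrays. Cross-hybridization among these close family members was not tested.

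**Figure D2:**
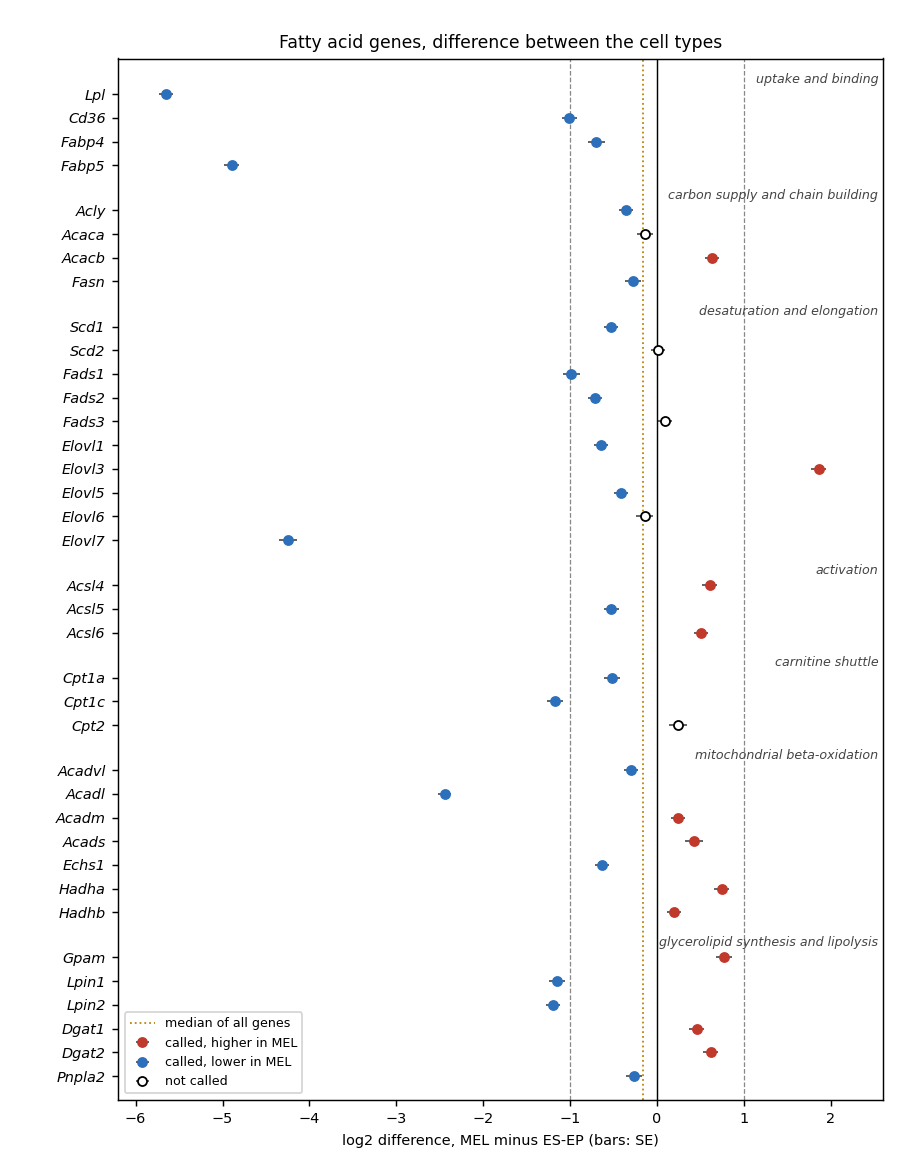
Log2 difference (MEL minus ES-EP, horizontal axis) of the 37 genes by role, with bars for the SE of limma's fit. Filled points were called, in red where higher and in blue where lower in MEL, open points were not. Dashed lines mark 2-fold and the dotted line the median of all genes (-0.15). All 4 genes of uptake and binding lie to the left of 0. Of these, Cd36 and Fabp4 were under the olfactory level in both cell types. Mitochondrial β-oxidation has genes on each side.

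Activation and the carnitine shuttle were measured in part, since Acsl1, Acsl3 and Cpt1b had no probe set of their own here. The Acsl genes encode the long-chain acyl-CoA synthetases. Acsl4, which prefers arachidonate, gave 9.96 and 10.01 in MEL, against 9.30 and 9.45 in ES-EP, 1.52-fold higher in MEL (adjusted p = 0.000147). Acsl5 went the other way, with 11.17 and 11.09 in MEL, against 11.71 and 11.60 in ES-EP, 1.44-fold lower in MEL (adjusted p = 0.000337). Acsl6, an isoform known in brain and erythroid cells, gave 5.67 and 5.64 in MEL, against 5.18 and 5.12 in ES-EP. That gap of 0.51 ± 0.08 is against background. Cpt1a, the carnitine palmitoyltransferase of the outer mitochondrial membrane and the controlled step of entry, was 1.43-fold lower in MEL (8.44 ± 0.09 in MEL and 8.95 ± 0.15 in ES-EP, adjusted p = 0.000853). Cpt1c, an isoform known mainly from neurons, gave 6.50 and 6.43 in MEL, against 7.55 and 7.72 in ES-EP, 2.25-fold lower in MEL (adjusted p = 1.22e-06). Cpt2, the enzyme on the inner membrane, gave 8.70 and 8.44 in MEL, against 8.25 and 8.40 in ES-EP, and narrowly missed the test (0.25 ± 0.10, adjusted p = 0.0572). It was called as higher in MEL under each of the 3 rescalings, with adjusted p of 0.0378 (quantile), 0.00735 (median) and 0.0192 (loess). Its difference depended on single arrays, however. It was 0.12 without MEL replicate A and 0.17 without ES-EP replicate A, against 0.37 without MEL replicate B and 0.32 without ES-EP replicate B.

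All 7 genes of mitochondrial β-oxidation were called, 4 higher and 3 lower in MEL. Among all genes 63.8% were called, 20.5% higher and 43.2% lower. The first step is taken by acyl-CoA dehydrogenases of different chain length preference. Acadl, the long-chain enzyme, gave 3.81 and 3.80 in MEL, against 6.21 and 6.29 in ES-EP, 5.44-fold lower in MEL, against background (-2.44 ± 0.08, adjusted p = 1.29e-09). Acadvl, the very-long-chain enzyme, was 1.23-fold lower in MEL (8.78 ± 0.02 in MEL and 9.08 ± 0.08 in ES-EP, adjusted p = 0.0087), a call that median centring ended (adjusted p = 0.119), as did leaving out MEL replicate B or ES-EP replicate B (adjusted p = 0.0609 and 0.0503). Acadm and Acads, of medium and short chains, were 1.19-fold and 1.34-fold higher in MEL (adjusted p = 0.0259 and 0.00491). For Acads the arrays gave 9.20 and 9.01 in MEL, against 8.56 and 8.80 in ES-EP, and its call was lost without MEL replicate A (adjusted p = 0.0748). That of Acadm was lost without MEL replicate A, ES-EP replicate A or ES-EP replicate B (adjusted p = 0.176, 0.0632 and 0.0788).

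The later steps had genes in each direction. Echs1, the short-chain enoyl-CoA hydratase, gave 8.57 and 8.53 in MEL, against 9.14 and 9.23 in ES-EP, 1.55-fold lower in MEL (adjusted p = 6.94e-05). Hadha and Hadhb encode the subunits of the mitochondrial trifunctional protein, which carries out the last steps on long chains. Hadha gave 10.93 and 10.86 in MEL, against 10.07 and 10.23 in ES-EP, 1.68-fold higher in MEL (adjusted p = 3.8e-05). Hadhb gave 10.98 and 10.96 in MEL, against 10.77 and 10.78 in ES-EP, only 1.15-fold higher (adjusted p = 0.0469). Its other probe set gave a like value (0.18 ± 0.07), and with the mean of its probe sets Hadhb was no longer called (adjusted p = 0.0547). The same held when any single array was left out (adjusted p between 0.09 and 0.153). The gene table also holds a Hadhb pseudogene, whose transcripts could not be separated here.

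Of 6 glycerolipid genes 3 were higher and 3 lower in MEL, beside 20.5% and 43.2% of all genes. Gpam, the mitochondrial acyltransferase that starts glycerolipid synthesis, gave 9.31 and 9.37 in MEL, against 8.46 and 8.66 in ES-EP, 1.71-fold higher in MEL (adjusted p = 3.91e-05). The lipins, phosphatidate phosphatases that yield diacylglycerol, were lower in MEL. Lpin1 gave 7.15 and 7.13 in MEL, against 8.17 and 8.39 in ES-EP, 2.21-fold lower in MEL (adjusted p = 2.02e-06). Lpin2 gave 9.12 and 9.10 in MEL, against 10.25 and 10.37 in ES-EP, 2.29-fold lower in MEL (adjusted p = 6.02e-07). These were the widest gaps of the role. The arrays of the cell types did not overlap for any of the 6 genes, nor for 16314 of all 19938 genes. Dgat1 and Dgat2, unrelated enzymes that complete triglyceride, were 1.38-fold and 1.54-fold higher in MEL (adjusted p = 0.000939 and 0.00013). In a test against a 1.2-fold difference Dgat1 was not called (adjusted p = 0.0659). Of the 32 called genes 9 lost their call in that test, namely Dgat1, Acadm, Acads, Acadvl, Acly, Elovl5, Fasn, Hadhb and Pnpla2. Dgat2 gave 7.26 and 7.35 in MEL, against 6.61 and 6.75 in ES-EP. Pnpla2, the lipase that begins triglyceride breakdown, was 1.2-fold lower in MEL (7.88 ± 0.04 in MEL and 8.14 ± 0.13 in ES-EP, adjusted p = 0.0262), a call that ended with median centring and cyclic loess (adjusted p = 0.283 and 0.0743) and without MEL replicate A, MEL replicate B or ES-EP replicate B (adjusted p = 0.145, 0.0814 and 0.158).

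Of the 9 genes that differed by 2-fold or more, 6 had a promoter in the RefSeq table (GRCm38.p6), namely Elovl7, Acadl, Cpt1c, Lpin1, Lpin2 and Cd36. Lpl, Fabp5 and Elovl3 were not matched. Promoters run from 250 bases before to 50 after the annotated start. To show the start regions of genes with such gaps, they are printed for Elovl7, Acadl, Cpt1c and the first of 3 annotated starts of Lpin2, which were lower in MEL and, unlike Cd36, above the olfactory level in ES-EP. Elovl7 was chosen by a rule for synthesis and elongation genes, the others after their values were seen. Lpin1 was also lower in MEL and above the olfactory level in ES-EP, but it is not printed. Capitals mark matches, on either strand, to the E-box CACGTG, the sterol element TCACNCCAC, the CCAAT box or the purine core GAGGAA.
Elovl7 (chr13:108214154-108214453, plus strand): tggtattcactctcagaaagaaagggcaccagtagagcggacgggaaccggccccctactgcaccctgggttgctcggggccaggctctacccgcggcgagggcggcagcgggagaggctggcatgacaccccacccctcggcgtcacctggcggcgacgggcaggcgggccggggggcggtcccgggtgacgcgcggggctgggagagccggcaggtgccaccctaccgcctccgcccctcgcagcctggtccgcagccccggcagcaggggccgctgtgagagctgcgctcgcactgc
Acadl (chr1:66863260-66863559, minus strand): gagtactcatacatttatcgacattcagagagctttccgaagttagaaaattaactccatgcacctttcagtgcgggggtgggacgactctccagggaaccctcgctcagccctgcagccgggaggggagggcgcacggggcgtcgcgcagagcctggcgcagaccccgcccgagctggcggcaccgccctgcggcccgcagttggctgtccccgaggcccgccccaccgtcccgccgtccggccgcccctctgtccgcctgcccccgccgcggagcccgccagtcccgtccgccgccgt
Cpt1c (chr7:44974802-44975101, minus strand): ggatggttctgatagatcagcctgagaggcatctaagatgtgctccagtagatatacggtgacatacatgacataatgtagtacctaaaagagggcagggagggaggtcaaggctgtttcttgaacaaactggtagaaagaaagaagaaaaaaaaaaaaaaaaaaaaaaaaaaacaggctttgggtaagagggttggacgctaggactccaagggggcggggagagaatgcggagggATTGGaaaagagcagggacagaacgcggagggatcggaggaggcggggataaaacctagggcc
Lpin2 (chr17:71183282-71183581, plus strand): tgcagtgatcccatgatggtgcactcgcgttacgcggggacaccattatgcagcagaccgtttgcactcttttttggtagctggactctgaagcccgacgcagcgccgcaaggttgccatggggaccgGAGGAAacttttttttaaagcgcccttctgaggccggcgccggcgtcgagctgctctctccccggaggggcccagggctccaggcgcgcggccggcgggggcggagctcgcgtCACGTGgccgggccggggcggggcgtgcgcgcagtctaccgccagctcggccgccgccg
The windows shown for Elovl7 and Acadl, both rich in G and C (74% and 70.3%), held none of these motifs, and neither did the promoter of Lpin1, which is not printed. That of Cpt1c held 1 CCAAT box, read on the opposite strand, and that of the first Lpin2 start held 1 E-box and 1 purine core. Of the windows not printed, the second Lpin2 start held none, the third held 3 CCAAT boxes and Cd36 held 1 CCAAT box. Of 32544 promoter windows of this length 7.17% held the E-box, 1.24% the sterol element, 37.4% CCAAT and 28.1% the purine core. A match is a description of the letters and not of binding.

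The genes around these pathways were taken as 6 lists, to be read beside the shares of all genes given above (20.5% higher and 43.2% lower in MEL). Of 25 measured regulators 12 were lower and 7 higher in MEL (median -0.20). Pparg, the nuclear receptor that drives uptake and storage genes in adipocytes, gave 5.07 and 4.99 in MEL, against 7.63 and 7.77 in ES-EP, 6.34-fold lower in MEL, against background (adjusted p = 1.18e-09). Its relative Ppara, which drives oxidation genes in liver, gave 5.59 and 5.65 in MEL, against 4.81 and 4.71 in ES-EP (0.86 ± 0.08), also against background. Nr1h3, the sterol receptor LXRα, was 2.52-fold higher in MEL, against background (6.67 ± 0.07 in MEL and 5.34 ± 0.05 in ES-EP). Prkab1, a subunit of the AMP-activated kinase that phosphorylates the acetyl-CoA carboxylases, was 2.54-fold lower in MEL (9.92 ± 0.04 in MEL and 11.27 ± 0.02 in ES-EP). Named for their role and after their values were seen, Srebf1, the main driver of fatty acid synthesis genes, was not called (-0.11 ± 0.09, adjusted p = 0.299), and Srebf2, which favors cholesterol genes, was 1.47-fold lower in MEL (adjusted p = 0.00027).

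Of 20 genes that supply synthesis and complete the elongation cycle, 13 were lower and 2 higher in MEL (median -0.45). Me1, the cytosolic malic enzyme that makes NADPH for synthesis, was higher, with 10.53 and 10.49 in MEL, against 7.80 and 7.66 in ES-EP, 6.87-fold higher in MEL (adjusted p = 7.45e-10). Acss2 and Acss1, which activate acetate in the cytosol and in mitochondria, were 4.35-fold and 3.72-fold lower in MEL. Acss2 gave 8.58 and 8.49 in MEL, against 10.63 and 10.68 in ES-EP. Hacd2, a dehydratase of the elongation cycle, was 2.67-fold lower (10.12 ± 0.04 in MEL and 11.53 ± 0.01 in ES-EP). Of the other enzymes of this cycle in the list, named after their values were seen, Tecr (-1.20), Hacd1 (-1.12), Hsd17b12 (-0.63) and Hacd3 (-0.54) were lower in MEL. The elongase Elovl4 was lower as well (-0.80), against background (4.84 in MEL and 5.65 in ES-EP). The elongase Elovl2 lay under the olfactory level in both cell types (4.45 in MEL and 4.34 in ES-EP) and was not called (0.10, adjusted p = 0.279).

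In the list of uptake, binding and lipoproteins 10 of 18 were lower and 4 higher in MEL (median -0.24). Lmf1, the chaperone that matures lipoprotein lipase, was 2.80-fold higher in MEL (8.91 ± 0.05 in MEL and 7.43 ± 0.17 in ES-EP), in the direction opposite to Lpl itself. Dbi, which binds acyl-CoA, was 1.98-fold lower. Vldlr and Slc27a5, an uptake receptor and a transporter, lay under the olfactory level in both cell types (differences -0.79 and -0.66).

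Among 27 oxidation partners 11 were lower and 10 higher in MEL (median -0.09). Decr1 and Eci2, auxiliary enzymes for unsaturated chains, were lower in MEL. Decr1 gave 4.36 and 4.32 in MEL, against 8.70 and 8.74 in ES-EP, 20.8-fold lower in MEL, against background (adjusted p = 2.03e-11), and Eci2 was 3.06-fold lower. Acaa2, the mitochondrial thiolase, was 2.31-fold lower (9.74 ± 0.07 in MEL and 10.95 ± 0.06 in ES-EP). Ehhadh, a bifunctional enzyme of peroxisomes, was 4.02-fold higher in MEL, against background (6.93 ± 0.04 in MEL and 4.92 ± 0.21 in ES-EP).

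Of 28 genes of glycerolipid storage and lipolysis 16 were lower and 5 higher in MEL (median -0.26). Agpat2, the acyltransferase between Gpam and the lipins, was 3.47-fold higher in MEL (9.47 ± 0.01 in MEL and 7.68 ± 0.03 in ES-EP), while Agpat4, of the same family, was 2.6-fold lower. Plin2, which coats lipid droplets, was 2.23-fold lower (9.92 ± 0.01 in MEL and 11.08 ± 0.01 in ES-EP), and the monoglyceride lipase Mgll was 2.94-fold lower, against background. The list of thioesterases and other acyl-CoA synthetases had the reverse balance, with 9 of 20 higher and 5 lower in MEL (median 0.10). Acsf2, an acyl-CoA synthetase, gave 7.73 and 7.69 in MEL, against 4.57 and 4.44 in ES-EP, 9.21-fold higher in MEL, against background (adjusted p = 2.23e-10). Acsf3, which activates malonate in mitochondria, was 3.55-fold higher (8.56 ± 0.05 in MEL and 6.74 ± 0.09 in ES-EP). Acot1 and Acot6, thioesterases that free the acid from coenzyme A, were 3.57-fold and 3.29-fold higher in MEL, against background, and close copies of the Acot genes were not separated.

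**Figure D3:**
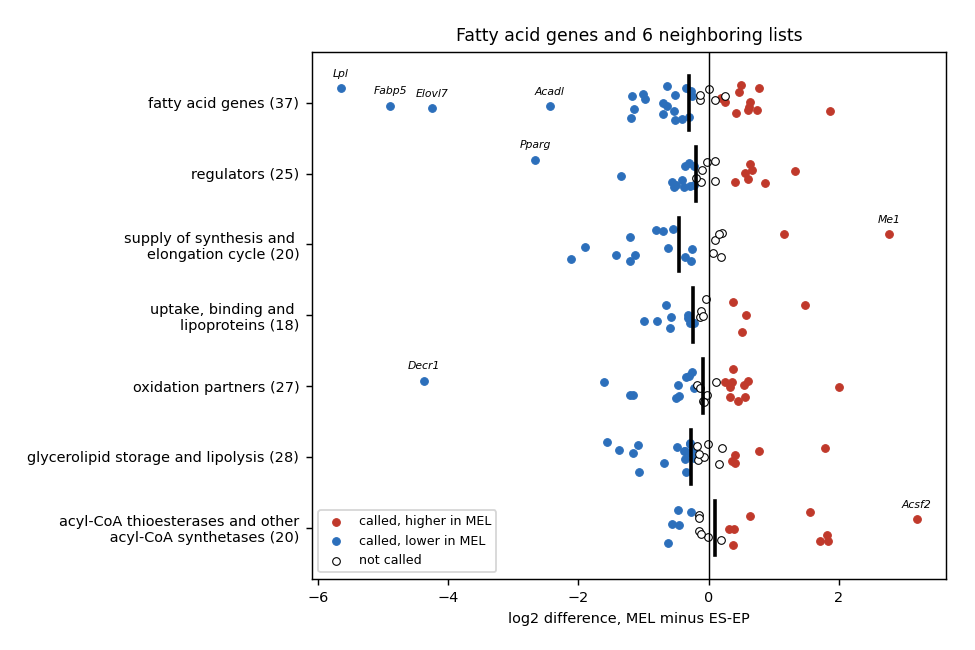
Log2 difference (MEL minus ES-EP, horizontal axis) of each measured gene of the fatty acid genes and of 6 neighboring lists, with the number of genes in parentheses. Filled points were called, in red where higher and in blue where lower in MEL, open points were not, and the thick black bar of each list stands at its median. The lowest median was -0.45, for synthesis supply and the elongation cycle and the highest 0.10, for thioesterases and other synthetases.

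The scale of the arrays bears mainly on the 28 genes whose differences were under 2-fold. Median centring gave the highest differences for most of these genes and left the gaps of Lpl, Fabp5, Elovl7 and Acadl at -5.51, -4.75, -4.10 and -2.30. The count of genes at least 2-fold lower was 8 in the deposited values, 7 with quantile normalization and cyclic loess, and 6 with median centring, where Lpin1 fell just short (-0.998) and Cd36 fell out.

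**Figure D4:**
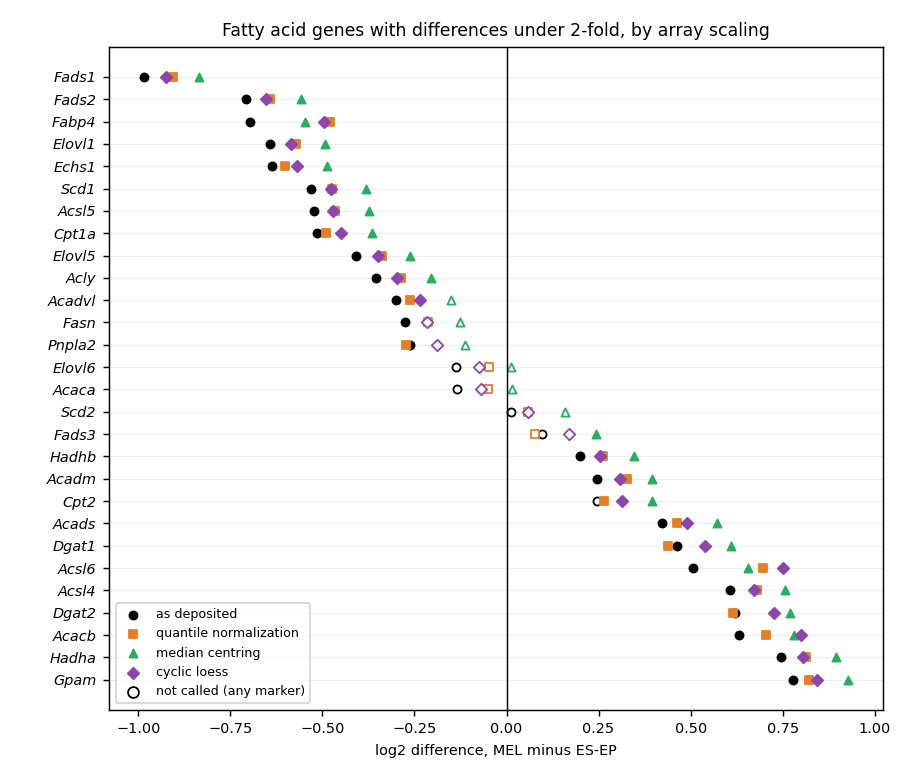
Log2 difference (MEL minus ES-EP, horizontal axis) of the 28 fatty acid genes with differences under 2-fold, as deposited and after 3 rescalings. Filled markers were called and open markers were not. Fasn was called only as deposited, and Acaca and Elovl6 crossed 0 with median centring but were called in no scaling shown.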

How the data were processed

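RNA of 2 MEL and 2 ES-EP cultures was hybridised to Affymetrix Mouse Gene 1.0 ST arrays, 1 array per culture. The deposited values are log2 signals that the authors made by RMA (background correction, quantile normalization and summary per probe set) in GeneSpring GX, whose version is not given in the sources used here. All 4 deposited columns were used (0 left out). Of 35557 probe sets 21789 carry 1 gene symbol and were kept, 1621 carry several and 12147 are unnamed here. Symbols were updated through the gene number for 21698 probe sets, and the probe set with the highest mean signal stood for each of 19938 genes. RMA makes arrays similar in distribution but their medians still differed. Median centring moved the differences of all genes by the same amount, whereas quantile normalization and cyclic loess moved them by amounts that varied with the gene.

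MEL was compared with ES-EP by limma (version 3.58.1 in R 4.3.3, lmFit and eBayes, 2 residual and 8.20 prior degrees of freedom) on all genes with Benjamini-Hochberg adjustment. ± after a mean is the SD of 2 cultures and after a difference the SE of limma's fit. That SE draws the variance of each gene toward a value common to all genes, so it is not the gene's own replicate error. With so few arrays precision is limited, and an exact two-sided permutation test on 2 against 2 could draw only 3 splits and give no p below 0.333. The scripts were tested on simulated data with known changes in a small part of the genes. Those data had no difference in scale between the groups, so that test does not bear on the scale of these arrays.

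The fatty acid genes, the pathway and marker lists and the olfactory level were chosen with earlier results of these data known. Array values are given for genes with a 2-fold difference and for those whose probe sets disagree, and for others where they help. Of each pathway list up to 4 called genes with the largest difference are named. The 14 alternatives changed the scaling, the filter on low signals, the probe set of a gene, the replicate letter as a block, the variance prior, the adjustment and the tested null, or left out 1 array. The letters A and B are not stated to pair cultures, and over genes the A minus B differences of the cell types had a correlation of -0.04, so no pairing was used.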

Additional observations from a re-analysis of the deposited data

How the results depend on the processing

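Of the 32 called genes 10 were called in every alternative that tested them (14, or 12 for Cd36, Elovl3 and Acadl), and none of the 32 changed sign. The median difference was -0.15 with median centring, where the median of all genes was -0.01, against -0.30 as deposited. The count of 2-fold higher genes was 0 with either filter on low signals, since Elovl3 was then not tested. The Holm adjustment, a stricter rule, called 1 gene higher and 9 lower, and a test against 1.2-fold called 7 higher and 16 lower. Leaving out 1 array gave 8 to 11 higher and 18 to 22 lower genes. Of all genes, Holm called 1484 higher and 1353 lower and the test against 1.2-fold 2488 and 3903, against 4096 and 8622. Of the genes not called, Acaca (0.016) and Elovl6 (0.012) turned positive with median centring, and Scd2 lay between -0.035 and 0.057 when single arrays were left out, lowest without ES-EP replicate A. With the letter as a replicate block 11 genes were higher and 21 lower; Hadhb was lost (adjusted p = 0.0813) and Cpt2 gained (adjusted p = 0.0287). That fit leaves 1 residual degree of freedom and gave all genes 1 variance, so its p-values carry little about single genes. Signals near background limit the folds of Lpl, Fabp5, Elovl7, Acadl and Elovl3.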

Other observations

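Both genes read only by a shared probe set were outside the counts. The probe set of Acsl3, which also lists Utp14b, gave 9.06 and 9.03 in MEL, against 9.20 and 9.21 in ES-EP (difference -0.16 ± 0.07, adjusted p = 0.129 over all probe sets). The probe set of Cpt1b, which also lists Gm44502, gave 6.22 and 6.17 in MEL, against 5.95 and 6.23 in ES-EP (0.10 ± 0.12, adjusted p = 0.5 over all probe sets). In this limma fit over all probe sets the adjusted p of the fatty acid genes was larger than in the fit over genes. That of Lpl was 2.87e-05, and Fasn (0.0819), Acadm (0.07), Pnpla2 (0.0824) and Hadhb (0.0806) were not called.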
